A study of Arabidopsis thaliana with 24 samples.

Results

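The 62 genes described here had opposite zone differences in a pair of Arabidopsis root reporter lines. In the PUB25 line each had at least 2-fold more transcript in Distal than Proximal cells, and in the SPT line at least 2-fold less, both on the log2(FPKM + 1) scale. FPKM is a read level scaled for transcript length and library size. They were taken from 32619 gene rows, of which 31229 name a single gene. Rows joining several genes, genes whose title names a ribosomal protein or a pentatricopeptide protein, and 5 further genes given by name were left out. The choice rests on the Distal and Proximal levels of the PUB25 and SPT lines, so these levels are given below as a description, with no test.

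Root meristems of Arabidopsis thaliana Col-0 were made into protoplasts (cells freed of their walls), sorted on GFP brightness, and their total RNA was sequenced. The 9 groups are the Proximal, Medial and Distal cells of the PUB25 line and of the SPT line, each with 3 libraries, and those of the TMO5 line, each with 2 libraries. Cells of the PUB25 and SPT lines came from the meristem as a whole and those of the TMO5 line from its xylem, and all 24 libraries share the ecotype and the protoplasting, with no treatment or mutation named. The labels give neither the promoter construct, nor the GFP brightness of a zone, nor the structure from which Proximal and Distal are counted, so the zone names serve as names only.

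The files hold 1 FPKM value per gene, line and zone, so no SD, n or replicate check exists for any level below, and the depth per library is unknown. Triplets of levels are in the order Proximal, Medial, Distal. The authors' deposited table holds q values (adjusted p-values) of their own test between zones, and "rose", "fell" and "a call" are used of a gene with q under 0.05 there, between Distal and Proximal cells unless another step is named. Whether the lines were normalised together is not known here, so levels of different lines stand side by side with no test. In sorted bulk samples fewer cells of a type and less RNA per cell cannot be told apart.

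Several members belong to well-studied root pathways. In the vascular cylinder the TMO5 transcription factor, with its partner LHW, switches on LOG3 and LOG4, enzymes that release active cytokinin, while AHP6 dampens cytokinin signalling in the cells that become protoxylem. ACL5 makes thermospermine, a polyamine that holds back xylem differentiation. In the nucleolus, fibrillarin and NOP56 are among the core proteins of the box C/D particles that methylate ribosomal RNA. In the epidermis, EGL3 and MYC1 are basic helix-loop-helix (bHLH) proteins of the complexes that set hair and non-hair fate.

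Opposite differences of this size were rare in the files. Of the 31229 single-gene rows, 5.34% were at least 2-fold higher in PUB25 Distal cells and 12.1% at least 2-fold lower in SPT Distal cells. Both held for 69 genes, 0.221% of the rows. Differences in the same direction were more frequent, with 4.13% of rows at least 2-fold higher in Distal cells of both lines and 1.22% at least 2-fold lower in both. The mirror image, lower in PUB25 Distal and higher in SPT Distal cells, was found in 0.298% of rows. The 7 genes left out of the 69 were 4 titled as ribosomal proteins (AT1G23410, AT3G16780, AT4G12600 and AT5G59240), the epidermal regulator GL2, the ground tissue regulator SHR and the RNA editing factor OTP86.

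**Figure D1:**
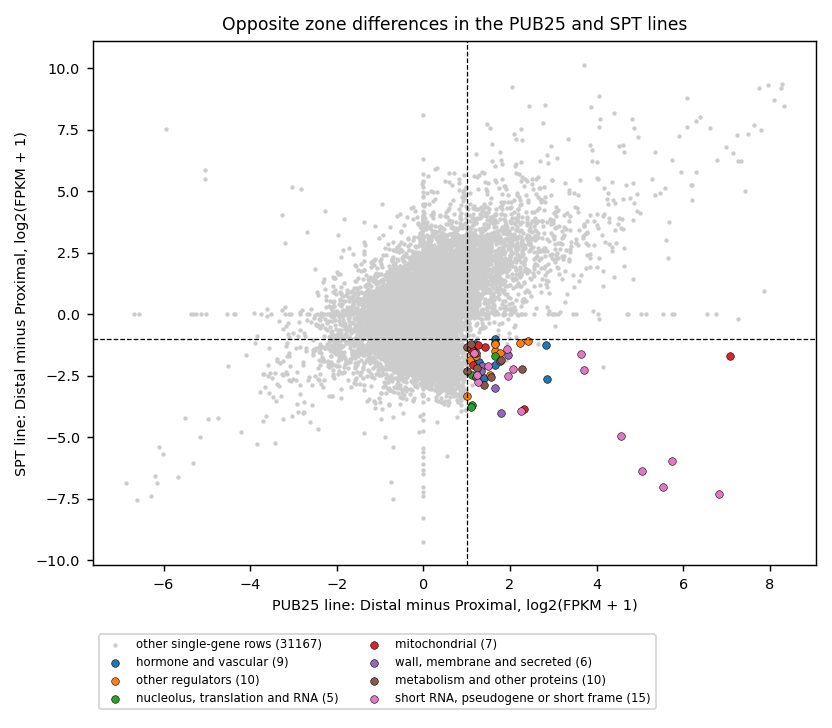
Distal minus Proximal difference in log2(FPKM + 1) of each single-gene row in the PUB25 line (x axis) and in the SPT line (y axis), with the thresholds as dashed lines. The 62 members, coloured by role group, fill the lower right corner, where 0.221% of the rows lie, and the points far to the right are short genes listed at 0 FPKM in a zone.

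Across the 62 members the median difference, Distal minus Proximal, was 1.55 in PUB25 and -2.08 in SPT, and the SPT difference was the larger in size in 46. In the authors' deposited table, 39 members rose in PUB25 Distal cells, where 19.9% of all measured genes (mean over the zones not under 1 FPKM) did. Likewise 30 fell in SPT Distal cells, where 23.1% of all genes did. There, 29 members had both calls, against 2% of all single-gene rows. The 2% is taken over rows of any level, unlike the 19.9% and 23.1%. The rule fixes both the direction and a size of at least 2-fold in each line. Counts of calls above the shares of all genes are thus partly built in and are a description only. A further 10 members had the PUB25 call only, 1 had the SPT call only and 22 had neither. At 0 FPKM in PUB25 Proximal or SPT Distal cells were 14 members, for which no fold between these zones is given, and the other 48 were above 0 in both.

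The members just inside the PUB25 threshold were AT1G74150 (1.0), AT5G48480 (1.0) and AN3 (1.01), and just outside it lay AT2G27775, SCRL14 and AT5G18790, each at 0.99 in PUB25 with SPT differences of -2.07, -1.27 and -2.33. At the SPT threshold LOG3 (-1.01), PHYD (-1.1) and AT5G25490 (-1.15) were just inside, and KDR (-0.97), AT3G15680 (-0.96) and AT3G56810 (-0.92) just outside. The boundary thus passes through a continuum of values in both lines.

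Genes of hormone signalling and vascular patterning formed a group of 9 members, AHP6, LOG3, LOG4, CRF4, ACL5, PHB, HAT3, PID2 and CLE17, assigned by hand, like all role groups below, after the values were seen. In the authors' deposited table, 8 of the 9 both rose in PUB25 Distal cells and fell in SPT Distal cells, and CLE17 had the PUB25 call only. Their differences ran between 1.15 and 2.84 in PUB25 and between -2.64 and -1.01 in SPT.

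AHP6, a pseudo-phosphotransfer protein that inhibits cytokinin signalling (chr1:30133726-30134810, TAIR10), had 1.23, 2.81 and 15 FPKM in PUB25, 11.5, 1.72 and 0.998 FPKM in SPT and 293, 133 and 100.1 FPKM in TMO5. The level was thus highest in Distal PUB25 cells but in Proximal cells of the other lines. Distal minus Proximal was 2.84 in PUB25, the largest among members above 0 FPKM in both zones, -2.64 in SPT and -1.54 in TMO5, with q = 0.000407, 0.00641 and 0.00777 in the authors' deposited table. A second deposited locus of AHP6 had the same direction between the end zones, but its lowest level in Medial cells of both lines, with 0.162, 0.0937 and 2.44 FPKM in PUB25 and 0.745, 0 and 0.129 FPKM in SPT.

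LOG3 (chr2:15623944-15626948) had 1.68, 2.78 and 7.39 FPKM in PUB25, 3.61, 3.49 and 1.28 FPKM in SPT and 104, 77.3 and 58 FPKM in TMO5. LOG4 (chr3:19812977-19815430) had 1.86, 2.84 and 5.92 FPKM in PUB25, 8.48, 11.2 and 1.5 FPKM in SPT and 27.8, 30.4 and 26.3 FPKM in TMO5. Both cytokinin-activating enzymes were higher at each step of PUB25, whereas in SPT their Medial levels were close to or above the Proximal ones and the Distal levels lowest. CRF4 (chr4:13909569-13910859), a cytokinin response factor of the AP2/ERF family, had 11.7, 17.9 and 32.3 FPKM in PUB25, 23.8, 9.72 and 3.12 FPKM in SPT and 80.8, 78.7 and 48.4 FPKM in TMO5. Its levels ran one way through the zones of PUB25 and of SPT, and its q in the authors' deposited table was the smallest of each line (0.000407 and 0.000359).

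ACL5 (chr5:6588958-6591363) had 1.43, 5.73 and 16.1 FPKM in PUB25, 7.27, 4.24 and 2.46 FPKM in SPT and 106, 167 and 145 FPKM in TMO5. It rose in both steps of PUB25, by 1.47 and 1.35 on the log2 scale (q = 0.000407 for each in the authors' deposited table), and its annotated gene overlaps AT5G19520 on the other strand. PHB (chr2:14639321-14644278), a class III HD-ZIP factor restricted by miR165 and miR166, had 13.7, 13.8 and 32.6 FPKM in PUB25, 19.8, 11 and 7.9 FPKM in SPT and 158, 210.1 and 175 FPKM in TMO5. Its PUB25 Proximal and Medial levels were nearly equal, so that the whole difference lay in the step to Distal cells. HAT3 (chr3:22320595-22322586), an HD-ZIP class II factor, had 1.35, 2.18 and 6.34 FPKM in PUB25, 2.55, 2.77 and 0.578 FPKM in SPT and 6.49, 11.3 and 13.3 FPKM in TMO5. PID2 (chr2:11368593-11371099), an AGC kinase related to PINOID, had 1.08, 2.86 and 5.58 FPKM in PUB25, 5.04, 0.527 and 0.432 FPKM in SPT and 32.4, 33.7 and 30.3 FPKM in TMO5. In SPT, PID2 was already near its Distal level in Medial cells, while HAT3 was not lower in Medial than in Proximal cells. CLE17 (chr1:26727899-26729137), a secreted CLE signalling peptide, had 1.9, 3.02 and 5.42 FPKM in PUB25, 4.08, 0.757 and 0.38 FPKM in SPT and 0.698, 0.932 and 0.42 FPKM in TMO5, and its q in SPT was 0.376 in the authors' deposited table.

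**Figure D2:**
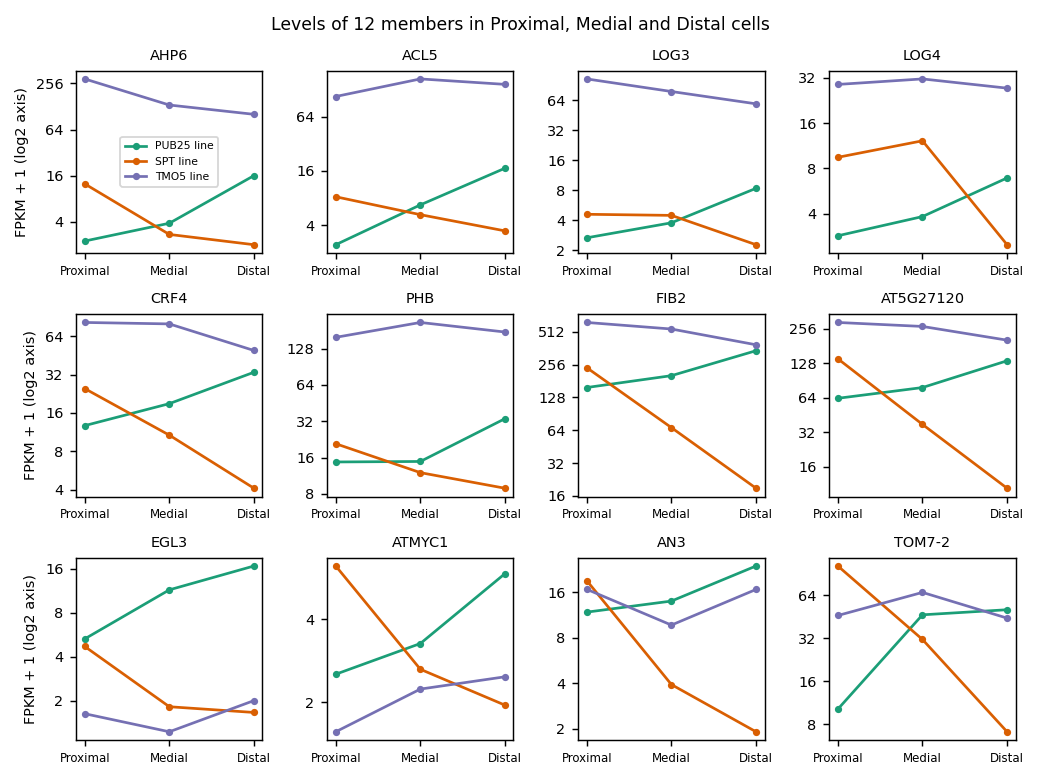
Levels of 12 members (FPKM + 1, log2 axis) in Proximal, Medial and Distal cells, with 1 deposited value per point and a line for each reporter line. In every panel the PUB25 line is highest in Distal cells and the SPT line lowest there, and AHP6, ACL5, LOG3, LOG4, CRF4, PHB, FIB2 and AT5G27120 have their highest levels in the TMO5 line.

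The next group held 10 other regulators, of which 6 had both calls in the authors' deposited table. EGL3 (chr1:23599413-23602902) had 4.3, 10.5 and 15.7 FPKM in PUB25, 3.71, 0.822 and 0.665 FPKM in SPT and 0.632, 0.228 and 1.01 FPKM in TMO5. ATMYC1 (chr4:216812-219743) had 1.53, 2.27 and 4.85 FPKM in PUB25, 5.24, 1.63 and 0.951 FPKM in SPT and 0.563, 1.23 and 1.47 FPKM in TMO5. Both bHLH genes of the epidermal fate complexes rose in PUB25, ATMYC1 fell in SPT, and EGL3 fell in SPT Medial against Proximal cells (q = 0.00372) but had q = 0.221 between the end zones in the authors' deposited table. Both were low in TMO5 xylem cells, at or under 1.47 FPKM in each zone. Of the epidermis list, GL2, itself past both thresholds, had 4.72, 10.7 and 20.7 FPKM in PUB25 and 7.36, 3.47 and 2.58 FPKM in SPT, while ATMYB66 (WER) had 65.6, 61.9 and 43.1 FPKM in PUB25 and 57.1, 33.0 and 28.6 FPKM in SPT.

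AN3 (chr5:10647549-10649892), also called GIF1, is a coactivator that works with growth-regulating factors in proliferating organs. It had 10.8, 13 and 22.8 FPKM in PUB25, 18, 2.92 and 0.91 FPKM in SPT and 15.7, 8.69 and 15.7 FPKM in TMO5. Its SPT difference, -3.32, was the largest of the regulators, and its Proximal and Distal levels in TMO5 were equal. ROXY1 (chr3:332275-333022), a glutaredoxin known from petal development, had 1.83, 1.96 and 7.16 FPKM in PUB25, 7.82, 0.472 and 0.596 FPKM in SPT and 40.4, 32.2 and 21.4 FPKM in TMO5. Its PUB25 difference came in the step to Distal cells and its SPT difference in the step to Medial cells.

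The bHLH gene AT2G41130 had 0.298, 0.622 and 3.06 FPKM in PUB25, 5.04, 6.58 and 1.64 FPKM in SPT and 37.5, 33.7 and 26.9 FPKM in TMO5. A second one, AT3G56770, had 0.0686, 2.08 and 2.65 FPKM in PUB25, 4.32, 1.36 and 0.774 FPKM in SPT and 18.1, 18.3 and 9.25 FPKM in TMO5, with q of 0.381 and 0.395 in the authors' deposited table. The SWIB/MDM2 domain gene AT2G14880 had 3.36, 3.79 and 8.13 FPKM in PUB25, 6.36, 1.56 and 1.03 FPKM in SPT and 19.8, 15.9 and 14.1 FPKM in TMO5. These 3 genes share low PUB25 and SPT levels with higher TMO5 levels.

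PHYD (chr4:9195602-9199718), a red and far-red light receptor, had 1.7, 3.25 and 13.4 FPKM in PUB25, 41.9, 30.2 and 19 FPKM in SPT and 2.67, 6.72 and 6.51 FPKM in TMO5. Its levels were highest in SPT, and its q of 0.402 and 0.401 in the authors' deposited table did not pass. A second locus of PHYD had 1.42, 1.41 and 2.01 FPKM in PUB25 and 2.18, 1.98 and 2.53 FPKM in SPT, without the lower Distal level. The zinc finger gene AT5G25490 had 0.277, 1.37 and 5.0 FPKM in PUB25, 4.09, 3.19 and 1.29 FPKM in SPT and 2.38, 3.78 and 6.08 FPKM in TMO5, and passed in both lines. The PHD finger gene AT1G05835 had 2.8, 5.97 and 7.22 FPKM in PUB25, 8.93, 4.76 and 2.45 FPKM in SPT and 3.95, 8.59 and 12.1 FPKM in TMO5, did not pass in either, and its deposited locus also covers 3 other annotated genes.

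The nucleolus, translation and RNA group held 5 members, of which FIB2, AT5G27120 and AT5G14580 had both calls. FIB2 (chr4:13074133-13076429), fibrillarin, the methyltransferase of box C/D particles, had 157, 202 and 343 FPKM in PUB25, 239, 66.7 and 17.8 FPKM in SPT and 625, 544 and 389 FPKM in TMO5. AT5G27120 (chr5:9540922-9543874), annotated as NOP56-like, had 62.3, 77.6 and 134 FPKM in PUB25, 139, 36.5 and 9.38 FPKM in SPT and 290.1, 268 and 203 FPKM in TMO5. Both were among the members with the highest levels, had SPT differences of -3.68 and -3.76, and had TMO5 differences of -0.68 and -0.51, with no call there. The deposited locus of FIB2 also covers AT4G25631.

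AT5G14580 (chr5:4697240-4703084), a polynucleotide phosphorylase that processes organelle RNA, had 4.59, 6.7 and 11.2 FPKM in PUB25, 10.0, 2.86 and 1.02 FPKM in SPT and 23.4, 21.1 and 15.1 FPKM in TMO5. AT3G09680 (chr3:2969045-2970371) had 0.679, 1.12 and 4.31 FPKM in PUB25, 3.15, 0.944 and 0.289 FPKM in SPT and 9.08, 6.46 and 3.66 FPKM in TMO5. RefSeq annotates it as a ribosomal protein of the S12/S23 family, but it carries no title in the files, so the name filter kept it against the label "non-ribosomal". It rose in PUB25 and had q = 0.199 in SPT in the authors' deposited table. The arginine/serine-rich protein gene AT1G79100, listed at 0 FPKM in PUB25 Proximal and SPT Distal cells, had at most 6.64 FPKM in any zone.

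The promoters of AT5G27120 and AT3G09680 are shown because they are the only member promoters of the 49 examined that hold both site II (TGGGCC or TGGGCT) and the telo-box (AAACCCTA), motifs known from Arabidopsis genes of ribosome production. Each is the 250 bases before the annotated start, 5′ to 3′ on the gene's strand, from the RefSeq TAIR10.1 genome, chr5:9540611-9540860 on the plus strand and chr3:2970372-2970621 on the minus strand, with matches on either strand in capitals.
AT5G27120: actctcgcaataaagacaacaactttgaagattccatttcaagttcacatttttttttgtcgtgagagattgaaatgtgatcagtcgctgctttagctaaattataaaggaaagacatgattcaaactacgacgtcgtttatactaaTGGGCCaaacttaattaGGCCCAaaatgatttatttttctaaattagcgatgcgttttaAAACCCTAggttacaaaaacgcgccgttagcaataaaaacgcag
AT3G09680: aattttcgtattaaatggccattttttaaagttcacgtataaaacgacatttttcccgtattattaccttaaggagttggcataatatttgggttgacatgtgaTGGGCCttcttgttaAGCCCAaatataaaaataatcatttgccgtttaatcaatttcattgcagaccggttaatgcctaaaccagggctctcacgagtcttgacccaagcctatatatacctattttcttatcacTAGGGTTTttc
Each holds site II letters at 2 places and the telo-box at 1.

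Both motifs together were found in 4.08% of the 49 protein-coding members' windows and 2.2% of 27443 windows of all protein-coding genes (250 bases before to 50 after the start, both strands). Site II, with or without the telo-box, was in 4 members (8.16%), against 21.7% of all windows, and none of the 9 hormone and vascular members held it. The telo-box was in 5 members (10.2%), LTPG1, TOM7-2, AT3G09680, FIB2 and AT5G27120, against 6.22% of all windows, and that of FIB2 lies after the annotated start. The G-box CACGTG was in 12.2% of members and 7.68% of all, TATAAA in 61.2% and 52.1%, the mitosis-specific core AACGG in 28.6% and 24.7%, and the E2F motif TTTCCCGC in 2.04% and 0.798%. With windows of 49 genes these shares are descriptions, and a match is not a site.

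Ribosome assembly genes outside the membership were read from a list of ribosome assembly factors and their regulators with 33 matched genes, of which only FIB2 is a member and 31 of the others were measured in each line. In the authors' deposited table, 13 of the 31 rose in PUB25 Distal cells, against 19.9% of all measured genes, and 0 fell. There, 26 of the 31 fell in SPT Distal cells, against 23.1% of all measured genes, and 0 rose. Median differences of the 31 were 0.36 in PUB25 and -2.33 in SPT, against -0.01 and 0.07 for all measured genes. In TMO5 the median was -0.45, against 0.00 for all genes, with 0 calls in either direction. ATNUC-L1, a nucleolin, was at 353 FPKM in PUB25 Distal and 197 FPKM in PUB25 Proximal cells (0.83), and at 34.2 FPKM in SPT Distal and 322 FPKM in SPT Proximal cells (-3.20). Like NAP57 (0.95) and NOP56 (0.79), it lay below the PUB25 threshold. This NOP56 is AT1G56110, a gene other than the NOP56-like member AT5G27120.

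**Figure D3:**
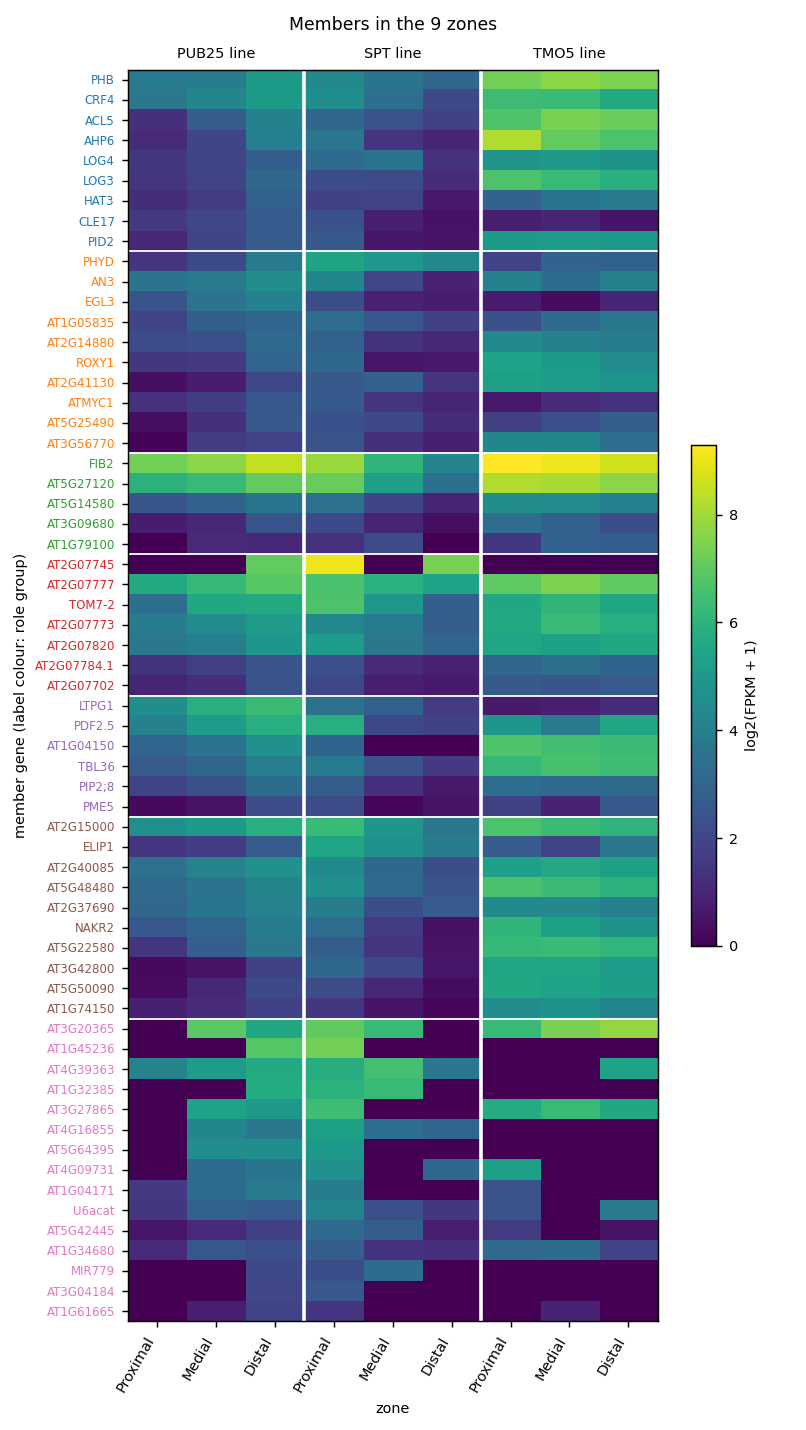
Level of each of the 62 members (rows, grouped by role through the label colour) in the 9 zones (columns), as log2(FPKM + 1) of the 1 deposited value. The PUB25 columns brighten and the SPT columns darken toward Distal, while the TMO5 columns vary little between zones for most protein-coding members, and the bottom rows hold short genes at 0 FPKM in many zones.

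The mitochondrial group held 7 members, TOM7-2 and 6 genes from a single stretch of chromosome 2. TOM7-2 (chr1:23833088-23833321), a small subunit of the outer membrane import pore, had 9.18, 45.6 and 49.6 FPKM in PUB25, 101, 30.3 and 6.07 FPKM in SPT and 45.1, 65.9 and 43.2 FPKM in TMO5. It rose in PUB25 Medial against Proximal cells (q = 0.0128) and had q = 0.841 for the next step in the authors' deposited table. Between the end zones its q there was 0.00866 in PUB25 and 0.0384 in SPT, with an SPT difference of -3.86.

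The other 6, AT2G07702, AT2G07745, AT2G07773, AT2G07777, AT2G07784.1 and AT2G07820, lie within chr2:3240838-3457876 (TAIR10, 217039 bases), where Arabidopsis Columbia carries a copy of mitochondrial DNA in the nuclear genome. Of all 50-base words of this window 96.0% also occur in the mitochondrial genome, against 1.32% for the whole of chromosome 2, and between 93.9% and 100% for the 6 members. No other member shares such a word. Reads of these genes can therefore come from either genome, while all 138 rows of the mitochondrial genome are listed at 0 FPKM in all 9 zones.

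AT2G07777, annotated as subunit 9 of ATP synthase, had 48.7, 73.3 and 118 FPKM in PUB25, 96.9, 59.6 and 39.6 FPKM in SPT and 126, 173 and 130.1 FPKM in TMO5. Its deposited locus also covers 6 other annotated genes, so these levels cannot be credited to it alone. AT2G07773, annotated as a cytochrome b protein, had 14.5, 21.3 and 34 FPKM in PUB25, 19, 13 and 5.87 FPKM in SPT and 49.4, 75.8 and 55.3 FPKM in TMO5. Both passed in both lines, and both had their highest TMO5 level in Medial cells. AT2G07745, a tyrosine tRNA, was listed at 133 FPKM in PUB25 Distal, 534 FPKM in SPT Proximal and 166 FPKM in SPT Distal cells and at 0 FPKM in the other 6 zones. The remaining 3 had between 0.592 and 45 FPKM over the 9 zones.

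Most measured rows of this window had the same directions as these 6 genes. The 67 measured single-gene rows include the 6 members, which the rule chose for these directions. Of the 67, 63 were higher in PUB25 Distal than Proximal cells, 59 were lower in SPT Distal than Proximal cells and 55 were both. Both held for 19.3% of all 15115 rows measured in both lines. Median differences of the 67 rows were 0.52 in PUB25 and -1.06 in SPT. The 6 members are the only measured rows of the window past 2-fold in PUB25, whereas 35 were past 2-fold in SPT. These rows share sequence and are not independent of each other.

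The wall, membrane and secreted group held 6 members, 4 with both calls. LTPG1 (chr1:9740704-9742159), a GPI-anchored lipid transfer protein of cuticle lipid export, had 22.8, 57 and 80.1 FPKM in PUB25, 10.3, 6.45 and 2.06 FPKM in SPT and 0.606, 0.729 and 1.34 FPKM in TMO5. It was among the highest protein-coding members in PUB25 but near 1 FPKM in TMO5. PDF2.5 (chr5:25485692-25486062), a defensin, had 16, 33.1 and 57.6 FPKM in PUB25, 55.5, 3.06 and 2.48 FPKM in SPT and 28.5, 13.1 and 43.9 FPKM in TMO5. Its SPT difference of -4.02 was the largest among members above 0 FPKM, yet its q was 0.371 in the authors' deposited table.

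TBL36, of the family of wall polysaccharide acetyltransferases, had 5.38, 7.18 and 14.9 FPKM in PUB25, 13.5, 4.23 and 1.91 FPKM in SPT and 72.1, 94.3 and 84.7 FPKM in TMO5. PIP2;8, a plasma membrane aquaporin, had 2.79, 3.96 and 8.69 FPKM in PUB25, 5.72, 1.47 and 0.58 FPKM in SPT and 9.13, 8.14 and 8.7 FPKM in TMO5. PME5, a pectin methylesterase, had 0.184, 0.397 and 3.59 FPKM in PUB25, 3.48, 0.104 and 0.421 FPKM in SPT and 2.58, 0.898 and 4.99 FPKM in TMO5. All 3 changed in both lines, and TBL36 alone of them was far higher in TMO5 than in the other lines. AT1G04150, a C2 domain protein, had 7.23, 10.5 and 25 FPKM in PUB25, 6.9, 0 and 0 FPKM in SPT and 107, 87.4 and 80.3 FPKM in TMO5, with no call, and its second locus had 0.369, 0.841 and 1.62 FPKM in PUB25 and 1.13, 0.124 and 0.152 FPKM in SPT.

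The metabolism and other proteins group held 10 members, 5 with both calls. AT2G15000, titled hypothetical protein, had 24, 32 and 57.5 FPKM in PUB25, 74.7, 28 and 11.8 FPKM in SPT and 99.96, 79.9 and 65.2 FPKM in TMO5. AT5G48480, a glyoxalase I family protein, had 8.29, 10.8 and 17.6 FPKM in PUB25, 24.9, 8.19 and 4.18 FPKM in SPT and 96.7, 79.1 and 61.1 FPKM in TMO5. NAKR2 (chr2:15693934-15695906), a heavy metal-binding protein related to the phloem protein NAKR1, had 4.84, 7.13 and 14.4 FPKM in PUB25, 8.9, 2.12 and 0.34 FPKM in SPT and 66.2, 39.2 and 26.6 FPKM in TMO5. AT2G15000 and AT5G48480 passed in both lines, and NAKR2 rose in PUB25, had q = 0.145 in SPT and fell in TMO5 Distal cells (q = 0.00777 in the authors' deposited table).

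ELIP1, an early light-inducible chlorophyll-binding protein of plastids, had 1.74, 2.25 and 5.34 FPKM in PUB25, 43.9, 25.2 and 14 FPKM in SPT and 5.43, 2.76 and 11.9 FPKM in TMO5. Like PHYD it was highest in the SPT line. AT5G22580, a stress-responsive A/B barrel protein, had 1.67, 5.8 and 12 FPKM in PUB25, 5.6, 1.61 and 0.403 FPKM in SPT and 73.2, 79.8 and 68.8 FPKM in TMO5. AT5G50090 had 0.22, 1.04 and 3.2 FPKM in PUB25, 3.51, 1.04 and 0.229 FPKM in SPT and 45.1, 40.8 and 35.3 FPKM in TMO5. AT3G42800 had 0.175, 0.415 and 2.47 FPKM in PUB25, 7.52, 3.02 and 0.467 FPKM in SPT and 43.5, 43 and 33.8 FPKM in TMO5. In TMO5 these last 3 genes exceeded all their PUB25 and SPT levels. The kelch gene AT1G74150, the purine synthesis gene AT2G37690 (AIR carboxylase) and AT2G40085 complete the group, and of these AT2G40085 had both calls.

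The remaining 15 members are short RNAs, pseudogenes and short open reading frames, and none had both calls in the authors' deposited table. Of these, 11 were listed at 0 FPKM in PUB25 Proximal or SPT Distal cells. Over all 62 members 49 were protein coding in RefSeq, 3 were snoRNAs, 5 were pseudogenes or transcribed pseudogenes, and 1 each was a tRNA, a miRNA (MIR779) and a minor spliceosomal snRNA (U6acat), with 2 not annotated there. Genes under 300 bases made up 14 members, while 4.75% of all 27219 matched rows are that short. FPKM of such genes divide few reads by a short length, and many were at 0 FPKM in some zones and above 20 FPKM in others.

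AT1G45236, a pseudogene with an older tRNA-Leu name, was listed at 113 FPKM in PUB25 Distal and 157 FPKM in SPT Proximal cells and at 0 FPKM in the other 7 zones, and its deposited locus of 9859 bases covers 9 other annotated genes. AT3G20365, a pseudogene with an older tRNA-Tyr name, had 0, 118 and 45.4 FPKM in PUB25, 128, 78.2 and 0 FPKM in SPT and 75.1, 172 and 218 FPKM in TMO5. AT5G64395 was listed at 22.5 FPKM in PUB25 Medial, 22.7 FPKM in PUB25 Distal and 30.2 FPKM in SPT Proximal cells and at 0 FPKM elsewhere. The smallest q of these 3 between the end zones of PUB25 or SPT was 0.221 in the authors' deposited table.

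The 3 snoRNA members are printed because box C/D snoRNAs guide the methylation carried out by fibrillarin in a particle with NOP56, and FIB2 and the NOP56-like AT5G27120 are members too. Sequences are the annotated genes, 5′ to 3′, from the RefSeq TAIR10.1 genome, at chr1:11685060-11685144, chr3:10328510-10328601 and chr4:18305256-18305375, all on the plus strand. Capitals mark TGATGA and CTGA, the usual core letters of box C and box D, on the gene's strand.
AT1G32385: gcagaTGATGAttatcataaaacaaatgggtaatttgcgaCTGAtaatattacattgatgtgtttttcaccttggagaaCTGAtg
AT3G27865: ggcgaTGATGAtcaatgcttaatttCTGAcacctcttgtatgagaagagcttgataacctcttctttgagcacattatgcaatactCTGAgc
AT4G39363: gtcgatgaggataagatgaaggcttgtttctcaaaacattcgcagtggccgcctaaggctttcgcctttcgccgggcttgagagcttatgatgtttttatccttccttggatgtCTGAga
AT1G32385 and AT3G27865 each hold TGATGA at 1 place and CTGA at 2, and AT4G39363 holds CTGA alone, at 1 place. Of 287 annotated snoRNA genes 49.8% hold TGATGA and 81.5% hold CTGA.

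AT1G32385 was listed at 52.6 FPKM in PUB25 Distal, 61.8 FPKM in SPT Proximal and 77.1 FPKM in SPT Medial cells, and at 0 FPKM in the other 6 zones. AT3G27865 had 0, 41.1 and 32 FPKM in PUB25, 82.7, 0 and 0 FPKM in SPT and 51.2, 75.2 and 46.2 FPKM in TMO5. AT4G39363 had 17, 34.6 and 49.8 FPKM in PUB25, 54, 90.1 and 11.9 FPKM in SPT and 0, 0 and 40.7 FPKM in TMO5, over a deposited locus that also covers AT4G39364 and AT4G39366. Each snoRNA was thus at 0 FPKM in some zones, unlike FIB2, and none had a q under 0.05 between end zones in the authors' deposited table.

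Among the other short members AT1G04171 had 1.98, 8.7 and 13.3 FPKM in PUB25, 14.2, 0 and 0 FPKM in SPT and 4.19, 0 and 0 FPKM in TMO5 and fell in SPT (q = 0.0425 in the authors' deposited table). AT4G09731 had 0, 8.68 and 11.4 FPKM in PUB25, 25.1, 0 and 7.53 FPKM in SPT and 37.9, 0 and 0 FPKM in TMO5. U6acat had 1.77, 6.3 and 5.58 FPKM in PUB25, 17.3, 3.87 and 1.75 FPKM in SPT and 4.25, 0 and 12.8 FPKM in TMO5. AT1G34680 had 1.18, 4.69 and 3.87 FPKM in PUB25, 5.98, 1.51 and 1.35 FPKM in SPT and 8.28, 8.68 and 2.73 FPKM in TMO5. The last 3 did not pass in either line. MIR779, AT3G04184, AT4G16855, AT5G42445 and AT1G61665 complete the group, and of these AT1G61665 alone had a call between the end zones, in PUB25 (q = 0.0241), and AT4G16855 rose in PUB25 Medial against Proximal cells (q = 0.00777), both in the authors' deposited table.

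The TMO5 line was not used to choose the members. Of the 62, 50 averaged at least 1 FPKM over its zones, 12 were below it, and 7 of these were listed at 0 FPKM in all 3 zones. Distal cells were at least 2-fold higher than Proximal cells for 8 of the 50 members, against 8.08% of all 14275 genes measured there, and at least 2-fold lower for 6, against 1.22%. In the authors' deposited table, 2 members, AHP6 and NAKR2, fell (0.266% of all genes) and 0 rose (1.3% of all genes). The median difference was -0.09 for the members and 0.00 for all genes, and 30 of 50 members, against 49.6% of all genes, were below 0. The rule required at least 2-fold in PUB25 and SPT, so the medians there (1.55 and -2.08) are no fair measure for that of TMO5.

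Of the 6 lower members, AT4G09731 and AT1G04171 were listed at 0 FPKM in TMO5 Distal cells, and no fold is given for them. The other 4 were AHP6 (-1.54), AT1G34680 (-1.31), NAKR2 (-1.28) and AT3G09680 (-1.11). Of the 8 higher ones, AT4G39363 was listed at 0 FPKM in TMO5 Proximal cells. The other 7 were AT3G20365 (1.52), AT1G05835 (1.4), U6acat (1.39), AT1G79100 (1.27), AT5G25490 (1.07), PHYD (1.03) and ELIP1 (1.0), and none of the 8 had a call. The scaling changes the second count, which was 5 after quantile normalization or median centring. By group, as assigned by hand, the median was -0.60 for the 5 nucleolus, translation and RNA members and -0.35 for the 10 of metabolism and other proteins. It was 0.23 for the 5 measured wall, membrane and secreted members. The other groups lay nearer to no difference, with -0.09 for hormone and vascular, -0.003 for other regulators, 0.02 for mitochondrial and -0.14 for short genes.

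Levels, in contrast, set many members apart in TMO5. Side by side, the lowest TMO5 zone was above the highest of the 6 PUB25 and SPT zones for 29 of the 50 measured members, against 20.4% of all genes measured there. It was at least 5 times that level for 7 members, against 0.49% of all genes. These 7 were LOG3 (58 and 7.39 FPKM), AHP6 (100.1 and 15 FPKM), ACL5 (106 and 16.1 FPKM), PID2 (30.3 and 5.58 FPKM), AT5G50090 (35.3 and 3.51 FPKM), AT1G74150 (18 and 2.57 FPKM) and AT5G22580 (68.8 and 12 FPKM), the lowest TMO5 zone being given first. A second deposited locus of AT1G74150 had 18.5 FPKM in its lowest TMO5 zone. Its highest PUB25 or SPT level was 4.48 FPKM, in PUB25 Distal cells, so this locus did not reach 5 times. All 8 measured hormone and vascular members were above the other 6 zones, as were 7 of 10 metabolism members and 0 of 7 measured short genes. Of the hormone and vascular members, HAT3 was above them only narrowly (6.49 and 6.34 FPKM). CLE17, the remaining member of that group, averaged under 1 FPKM in TMO5 and was not counted. On the other side stood LTPG1, EGL3, ATMYC1 and CLE17, with at most 1.47 FPKM in any TMO5 zone.

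**Figure D4:**
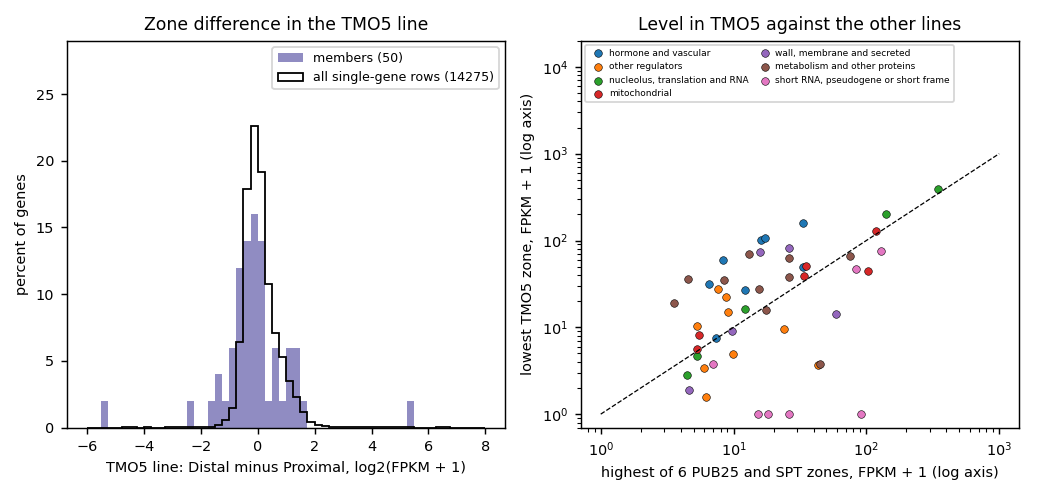
Left, share of genes by Distal minus Proximal difference in TMO5, for the 50 measured members (filled) and all 14275 measured genes (outline), where both centre near 0. Right, lowest TMO5 zone against the highest of the 6 PUB25 and SPT zones (FPKM + 1, log axes) per member, with the line of equality, where 29 members lie above the line.

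Medial levels were also outside the rule, though they are compared with end zones that it used. In PUB25 and SPT the steps add up to a difference that the rule fixed. Shares of members above those of all genes are thus partly built in there and are a description only. Genes past the same threshold are set beside the members in the next paragraph. The Medial level lay between the end zones for 51 of 62 members in PUB25, 43 in SPT and 23 in TMO5. In PUB25, Medial was at least 2-fold above Proximal for 15 of 60 measured members (7.34% of all genes) and Distal at least 2-fold above Medial for 20 (3.33% of all genes). In the authors' deposited table, 10 members rose in the first step (14.9% of all genes) and 32 in the second (11.2% of all genes). In SPT, Medial was at least 2-fold below Proximal for 41 of 60 members (12.4% of all genes) and Distal at least 2-fold below Medial for 19 (7.25% of all genes). There, 21 fell in the first step (17.4% of all genes) and 13 in the second (10.5% of all genes), per the same table. In TMO5, Medial was at least 2-fold above Proximal for 3 of 50 members (0.609% of all genes) and 2-fold below it for 5 (2.58%), and Distal was 2-fold above Medial for 5 (10.5%) and 2-fold below it for 1 (0.469%). AHP6 alone fell in the first TMO5 step in the authors' deposited table (0.182% of all genes), and no member had a call in the second.

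The step from Proximal to Medial made up a median of 35.2% of the whole PUB25 difference for the 48 members above 0 FPKM in the end zones, and 67.2% for all 1563 genes past the same threshold. More than 50% of the difference lay in this step for 14 of the 48 members, against 67.4% of those genes. In SPT the median was 61.4% for the members and 58.7% for all 3660 genes past that threshold, and 33 of 48 members, against 73.9% of those genes, had more than 50% in the first step. In PUB25 the members' median share of the first step was thus below that of all such genes, while in SPT it was close to theirs. PHB (1.15%), ROXY1 (4.48%), PME5 (12.2%) and AT2G14880 (12.6%) had the least of their PUB25 difference in the first step, and TOM7-2 (94.9%) and EGL3 (67.3%) were among those with most of it there.

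**Figure D5:**
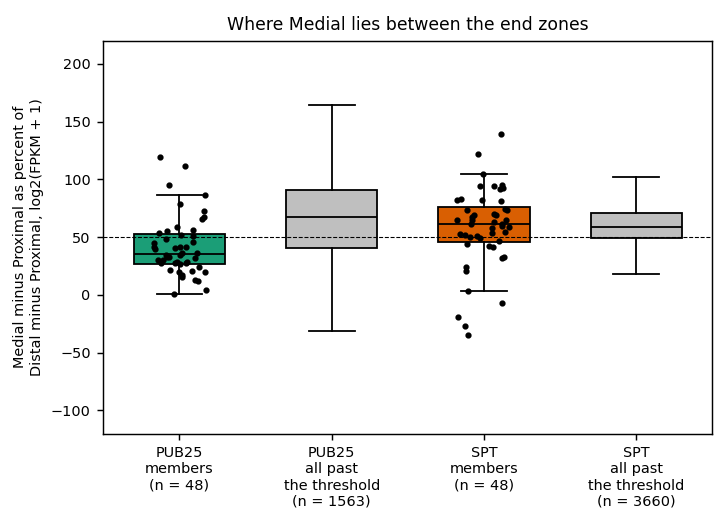
Medial minus Proximal as a percent of Distal minus Proximal, log2(FPKM + 1), for the 48 members above 0 FPKM in the end zones (points and coloured boxes) and for all genes past the same threshold (grey boxes). Boxes span the quartiles with the median as a line, and whiskers end at the last value that is not an outlier of the box. The PUB25 members have a median of 35.2% against 67.2% for all genes, and the SPT members 61.4% against 58.7%.

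Markers of cell types also differed between zones. For the lists of this paragraph and the next, 19.9% of all measured genes rose in PUB25 Distal cells and 23.1% fell in SPT Distal cells. The shares of all genes that fell in PUB25 or rose in SPT are not given here, so those counts are descriptions only. The early xylem list of 6 genes, which includes the members AHP6 and ACL5 and the TMO5 gene itself, summed to 6.68, 16.0 and 56.2 FPKM in PUB25, 32.0, 29.5 and 15.8 FPKM in SPT and 1029.8, 792 and 596 FPKM in TMO5, with no marker at 0. In the authors' deposited table, 6 of 6 rose in PUB25 Distal cells, and in SPT 3 fell, AHP6, ACL5 and TMO5, and 0 rose. Without AHP6 and ACL5, which were chosen for these differences, the list summed to 4.02, 7.51 and 25.1 FPKM in PUB25, where 4 of 4 rose, and to 13.2, 23.5 and 12.4 FPKM in SPT, where 3 of the 4 were higher in Distal than Proximal cells with no call and only TMO5 fell. Xylem vessel markers (9 genes) summed to 60.3, 48.3 and 205 FPKM in PUB25 and 7.25, 999.9 and 571 FPKM in SPT, with 9 rising in PUB25 and 7 in SPT. The 5 division markers summed to 230.5, 178 and 219 FPKM in PUB25, where 1 rose and 1 fell, and 266, 93.8 and 35.5 FPKM in SPT, where 5 fell. Epidermis markers (4 genes) summed to 72.1, 77.3 and 69.8 FPKM in PUB25, where 3 rose and 1 fell, and 68.0, 39.0 and 36.1 FPKM in SPT, where 1 rose and 2 fell. The part of cell makeup in the members' differences was not tested.

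Of the stem cell niche list, 5 of 5 measured genes fell in PUB25 Distal cells and 4 of 6 in SPT Distal cells, with 1 rising there, so this list did not share the members' opposite directions. Endodermis markers (5 measured in PUB25, 7 in SPT) rose in 2 cases in PUB25 and 5 in SPT, where 1 fell. The 4 markers of wounding by protoplasting summed to 2211, 2544 and 1706 FPKM in PUB25, where 3 fell, and 1450.4, 2941 and 3232 FPKM in SPT, where 2 rose. Phloem markers rose in 2 of 2 measured genes in PUB25 and 3 of 4 in SPT. Among the reporter genes SPT had 26.5, 5.66 and 1.36 FPKM in its own line, PUB25 had 9.15, 4.98 and 5.01 FPKM in its own line, and TMO5 (AT3G25710) had 481, 354 and 240.0 FPKM in its own line.

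The members lie on all 5 chromosomes, with 14, 17, 11, 7 and 13 on chromosomes 1 to 5, and 6 of the 17 on chromosome 2 lie in the mitochondrial copy. Their median annotated gene length was 1630.5 bases, against 1996 bases for all matched rows. The annotated genes of 15 members overlap another gene, 14 of them on the other strand, among them ACL5, LOG4, CRF4, ROXY1, LTPG1, NAKR2 and AT3G09680. Whether the authors counted by strand is not stated, so reads of such partners cannot be told apart. The deposited loci of 15 members, not all the same ones, overlap another annotated gene, AT2G07777 among them.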

How the data were processed

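Total RNA of sorted root meristem protoplasts (24 libraries) was purified by RNeasy micro columns (QIAGEN), and libraries were built with NuGEN's Ovation ultralow system, per the labels' protocols. Bowtie, TopHat, Cufflinks, Cuffdiff and the TAIR10 build are named in the submitters' processing notes, without versions. The authors deposited FPKM, 1 value per gene, line and zone, and how libraries were pooled is not given in the sources used here. The authors' deposited tables also hold log2 folds and q values (adjusted p-values) between zones, and the smallest q was 0.000407 in PUB25, 0.000359 in SPT and 0.00777 in TMO5. Without counts the depth is unknown, so no interval or detection limit is given.

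From the authors' FPKM, log2(FPKM + 1) differences between zones were computed, and 2-fold differences counted among single-gene rows that averaged 1 FPKM or more across a line's zones. A limma test was planned for values per library. With 1 value per zone it could not be run, and levels, counts and medians are given instead. Members and lists were chosen with earlier results of these data known. Genes were named by largest gap between the lines, highest mean level, highest and lowest TMO5 difference, title class or list of at least 3 members, and nearness to a threshold. Other names, and the role groups, were chosen after the values were seen. The list symbols BOP1, BRN1 and RPL4 matched another gene and were left out. Lists of root cap and pericycle markers had too few measured genes to describe.

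Positions are deposited loci, counted from 1, on TAIR10. Of 26616 single nuclear loci 26615 overlapped their gene in the RefSeq TAIR10.1 annotation, from which sequences and gene types were read. Alternatives were a pseudocount of 0.1, other filters, quantile normalization, median centring and the authors' q. Leaving out the members at 0 FPKM or the chromosome 2 cluster was added after seeing the data. The computation was tested on simulated data. Tools were Python 3.11.15, numpy 2.4.6, pandas 2.3.3 and matplotlib 3.10.9.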

Additional observations from a re-analysis of the deposited data

How the results depend on the processing

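The membership depended on how low values are treated. A pseudocount of 0.1 chose 191 genes, all 62 members and 129 others, a minimum mean of 5 FPKM in both lines left 27 members, and requiring the authors' q under 0.05 in both lines left 29. Quantile normalization gave 61 genes, 58 of them members, and median centring 71 with all 62 members. A minimum of 1 FPKM left 58 and leaving out members at 0 FPKM left 48. In TMO5 the 6 members at least 2-fold lower in Distal cells were between 4 and 7 under the other settings, and 2 by the authors' q. The 8 higher members were 5 after quantile normalization, 5 after median centring and 0 by the authors' q. Quantile normalization moved the TMO5 median of all genes to -0.10, against 0.00 as deposited, while the members' median ran between -0.19 and -0.03 over all settings. Counts of members with Medial between the end zones changed by at most 4. For single members, scaling moved no difference by over 1.5-fold, whereas the pseudocount of 0.1 moved 25 PUB25, 33 SPT and 5 TMO5 differences of 62. In PUB25 it took AT3G56770, with 0.0686 FPKM in Proximal cells, from 1.77 to 4.03. AT2G15000, with 24 FPKM there, went from 1.22 to 1.25. No member's difference of at least 2-fold changed sign under these settings. No paired analysis was possible because the files hold no value per library, and leaving out each replicate was not run for the same reason. The unknown depth limits what can be said of genes at or near 0 FPKM.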
